A study of Drosophila melanogaster with 4 samples.

Results

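The 10 genes described here are the transcription factor gene Myc with its partner genes Max and Mnt, and 7 genes of rRNA synthesis and ribosome assembly in the nucleolus: Fib, nop5, Nop56, Nop60B, Nnp-1, Nopp140 and Tif-IA. They were chosen by name from a table of 17559 genes. All 10 were found, 9 under these names and Myc under its older name dm (diminutive), through its gene identifier. The RNA came from wing discs of larvae of the fly Drosophila melanogaster, collected in the third instar. Wing discs are pouches of epithelium from which the wing and upper thorax of the adult develop. There were 2 libraries from Paip1 mutant discs and 2 from control discs of the y w strain, which is named for mutations in a body colour gene and an eye colour gene. Paip1 encodes a protein that binds the poly(A)-binding protein during translation. The labels give neither the mutant allele nor whether the mutant larvae also carried y and w, so effects of strain and of Paip1 cannot be told apart. The labels number the replicates without saying that they came from separate collections, so the p-values below reflect the spread among these libraries alone, and that spread may be technical.

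Myc and Max are basic helix-loop-helix leucine zipper proteins that bind DNA together and activate genes for growth. Mnt also pairs with Max and represses genes. In wing discs, Myc is known for raising cell growth, and genes for nucleolar proteins are among its best known targets. In the nucleolus, RNA polymerase I transcribes the rRNA precursor, and small nucleolar ribonucleoproteins (snoRNPs) modify it: box C/D particles add methyl groups and box H/ACA particles convert uridine to pseudouridine.

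Levels are in TPM, a length-corrected share of the transcripts of a library, so that genes can be compared with each other. The unit was inferred from the values, and read depth is unknown because TPM keeps none. Differences were tested with limma on log2(TPM + 1) over 8605 genes, and a gene passed at a Benjamini-Hochberg adjusted p below 0.05; all 10 genes were tested. Fold changes are given as log2 values on that scale, mutant minus control, with their standard errors (SE). The Paip1 transcript itself was at 2.37 and 2.22 TPM in the mutant libraries, against 112 and 121 TPM in the control libraries (log2 fold change -5.16, SE 0.12, adjusted p = 3.54e-05).

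Of the 10 genes, Max fell in the mutant, to about 51.4% of its control level, none rose, and 9 did not pass the test. Across all tested genes 44.8% passed, 29.1% lower and 15.6% higher. The median log2 fold change was -0.23 over the 10 genes and -0.22 over all tested genes, so the set as a whole lay where the typical gene lay. The 10 genes together summed to 1254 and 1412 TPM in the mutant libraries, against 1424 and 1611 TPM in the control libraries. All fold changes here come from bulk tissue, in which fewer cells of a type and less RNA per cell cannot be told apart.

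**Figure D1:**
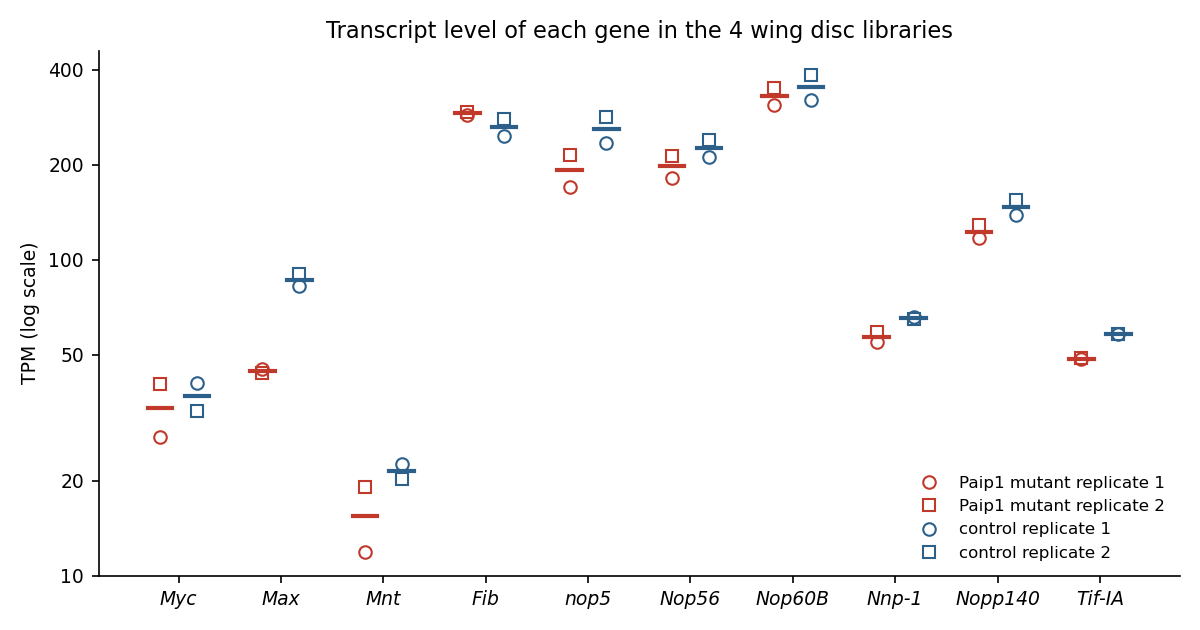
TPM of each gene (log axis) in each library: red marks are the Paip1 mutant libraries, blue marks the control libraries, circles replicate 1, squares replicate 2, and short lines the mean of a group. The mutant marks of Max, at 45.1 and 43.8 TPM, lie far below its control marks, at 82.8 and 90.1 TPM, while those of Myc, Nop56 and Nop60B overlap with their control marks.

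Several values that differ between the groups or libraries stand beside every result below, and their part in those results was not tested. The listed TPM summed to 919460 and 936038 in the mutant libraries, against 995750 and 996531 in the control libraries. Of 8 markers of the wing disc epithelium 6 fell. The summed level of the 8 was 442 and 518 TPM in the mutant libraries, against 823 and 817 TPM in the control libraries. The markers wg (log2 fold change 0.31, adjusted p = 0.139) and dpp (0.09, adjusted p = 0.526) did not pass. Under median-ratio scaling wg passed as higher (0.48, adjusted p = 0.0368), and hh, among those that fell, did not pass (-0.22, adjusted p = 0.0866). Adult muscle precursor markers fell for 4 of 5 genes (summed level 34.3 and 46.8 TPM in the mutant, 104 and 93.3 TPM in control). Muscle markers rose for 5 of 5 genes (155 and 103 TPM in the mutant, 14.1 and 23.3 TPM in control), and hemocyte markers for 3 of 5 (16.2 and 25.96 TPM in the mutant, 1.56 and 6.59 TPM in control). Fat body markers fell for 2 of 4 genes (121 and 35.0 TPM in the mutant, 1158 and 430 TPM in control). Salivary gland markers, with 3 genes, summed to 2.13 and 2.87 TPM in the mutant libraries and to 3100 TPM in control replicate 1, against 1.72 TPM in control replicate 2. Tracheal markers had 1 of 3 genes lower (151 and 202 TPM in the mutant, 155 and 180 TPM in control), and neuronal markers 1 of 3, with 1 tested (8.25 and 10.1 TPM in the mutant, 13.7 and 13.1 TPM in control). The hemocyte marker NimC1 was listed at 0 in control replicate 1, and each of the salivary gland markers in at least 1 library.

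Myc (FBgn0262656), on the plus strand of chromosome X from 3373159 to 3391697 in dm6, was at 27.5 and 40.5 TPM in the mutant libraries, against 40.8 and 33.3 TPM in the control libraries. The groups overlapped, and the lowest and the highest value of the 4 lay in mutant replicate 1 and control replicate 1. The log2 fold change was -0.14 (SE 0.21, 95% interval -0.68 to 0.41, adjusted p = 0.625), so the interval holds both a fall and a rise of moderate size. Its sign turned under median-ratio scaling (0.03), without control replicate 1 (0.01) and without mutant replicate 1 (0.13).

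Other annotated genes share exon sequence with Myc. CG12535, on the opposite strand, overlaps 3754 of the 9170 exonic bases of Myc, or 40.9%, and lncRNA:CR44999, on the same strand, shares 1859 bases in the first exons. CG12535 rose to 149 and 147 TPM in the mutant libraries, against 103 and 118 TPM in the control libraries (log2 fold change 0.42, adjusted p = 0.0363). lncRNA:CR44999 was at 63.2 and 58.0 TPM in the mutant libraries, against 69.9 and 57.3 TPM in the control libraries (adjusted p = 0.724). Whether strand was used in counting is not given in the sources used here, so the division of reads among these 3 genes, and with it the level of Myc, is uncertain.

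**Figure D2:**
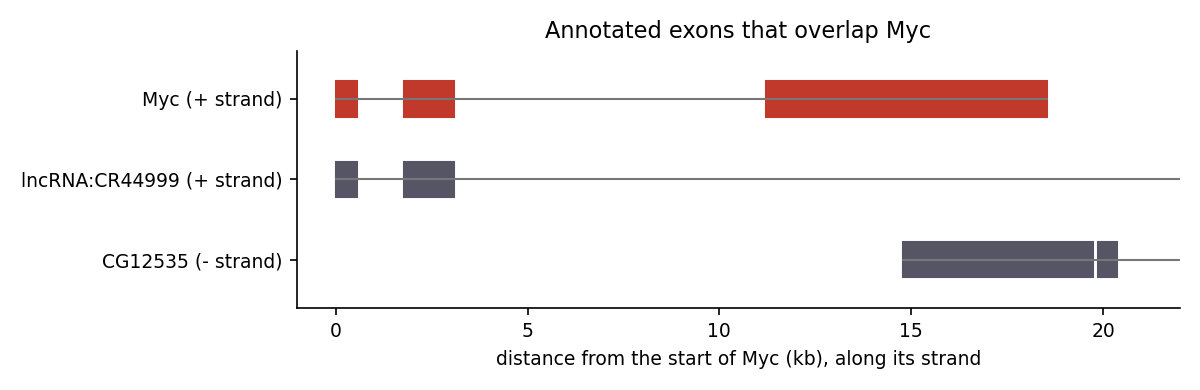
Annotated exons (blocks) and introns (lines) of Myc and of the 2 genes that overlap it, by distance in kb from the start of Myc; lines that reach the right edge run on beyond it. The last exon of Myc, from 11.2 to 18.5 kb, shares its far end with the first plotted block of CG12535, from 14.8 to 19.7 kb on the other strand, and lncRNA:CR44999 shares the blocks before 3.1 kb.

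Max (FBgn0017578), on the minus strand of chromosome 3L from 19262232 to 19264184, encodes the partner with which Myc and Mnt both bind DNA. It was at 45.1 and 43.8 TPM in the mutant libraries, against 82.8 and 90.1 TPM in the control libraries. Both mutant libraries lay far below both control libraries, and the libraries of each group were close to each other. The log2 fold change was -0.94 (SE 0.11, 95% interval -1.22 to -0.67, adjusted p = 0.00344), and 8.25% of all tested genes had a lower one. Under median-ratio scaling it was -0.77 (adjusted p = 0.00469). Without control replicate 2 it was -0.88 and missed the threshold (adjusted p = 0.0501), and without any other single library it passed.

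Exons of Max overlap those of Bet1 by 206 bases and those of Mettl5 and CG42374, which share coordinates and values, by 182 bases, out of 1289 exonic bases, all on the opposite strand. Bet1 was at 47.7 and 52.7 TPM in the mutant libraries, against 48.6 and 47.3 TPM in the control libraries (log2 fold change 0.06, adjusted p = 0.666). Mettl5 was at 17.7 and 22.5 TPM in the mutant libraries, against 22.9 and 27.4 TPM in the control libraries (log2 fold change -0.31, adjusted p = 0.172). None of these overlapping genes passed the test.

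Mnt (FBgn0023215), on the plus strand of chromosome X from 3671801 to 3701672, was at 11.9 and 19.1 TPM in the mutant libraries, against 22.5 and 20.2 TPM in the control libraries. The groups did not overlap, but mutant replicate 2 lay close to control replicate 2. Its log2 fold change of -0.47 did not pass (SE 0.23, 95% interval -1.06 to 0.11, adjusted p = 0.146), and 1 mutant library decided its size. With mutant replicate 1 dropped it was -0.15 (adjusted p = 0.413), and with mutant replicate 2 dropped it was -0.79 (adjusted p = 0.0379). In both fits the single mutant library left is assumed to vary like the control libraries. Under median-ratio scaling it was -0.31 (adjusted p = 0.269).

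The ratios of levels within the network were compared next. Myc over Max was 0.610 and 0.925 in the mutant libraries, against 0.492 and 0.369 in the control libraries, with no overlap. The log2 ratio differed by 0.82, and the exact two-sided permutation test gave p = 0.333, the smallest that 2 against 2 libraries allow (Benjamini-Hochberg adjusted 0.416 over the 5 ratios computed). Mnt over Max was 0.264 and 0.436 in the mutant libraries, against 0.272 and 0.225 in the control libraries, which overlapped (exact permutation p = 0.667, adjusted 0.667). Myc over Mnt was 2.31 and 2.12 in the mutant libraries, against 1.81 and 1.64 in the control libraries (exact permutation p = 0.333, adjusted 0.416).

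Fib (FBgn0003062), at 23072909 to 23074725 on chromosome 2R (minus strand), encodes fibrillarin, the methyltransferase of the box C/D particles. It was at 288 and 294 TPM in the mutant libraries, against 246 and 280 TPM in the control libraries. It was the only gene of the 10 with both mutant libraries above both control libraries, but the gap between groups was narrower than that between the 2 control libraries. The log2 fold change was 0.15 (SE 0.11, 95% interval -0.14 to 0.43, adjusted p = 0.325), and 0.32 under median-ratio scaling (adjusted p = 0.0500467, just over the threshold). In the authors' deposited table it was 0.32 with an adjusted p of 0.0224.

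The genes nop5, the fly counterpart of yeast Nop58, and Nop56 encode the paired scaffold proteins of the same particles. nop5 (FBgn0026196), on the minus strand of chromosome 2L from 6916753 to 6918743, was at 171 and 215 TPM in the mutant libraries, against 235 and 283 TPM in the control libraries. The groups did not overlap, but the libraries within each group lay farther apart than the groups did at their nearest. Its log2 fold change of -0.43 had an unadjusted p of 0.0444, a level that 55.2% of all tested genes reached at 0.05, and did not pass after adjustment (SE 0.16, 95% interval -0.84 to -0.02, adjusted p = 0.0825). The fold change was -0.25 under median-ratio scaling (adjusted p = 0.164). It was -0.26 without mutant replicate 1 and -0.59 without mutant replicate 2. Without control replicate 1 it was -0.56, and without control replicate 2 it was -0.29. nop5 lies within x16, a gene on the same strand with which it shares no exon sequence and which fell to 106 and 122 TPM in the mutant libraries, against 167 and 181 TPM in the control libraries (log2 fold change -0.61, adjusted p = 0.0152).

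Nop56 (FBgn0038964), at 22419095 to 22421068 on chromosome 3R (minus strand), was at 181 and 214 TPM in the mutant libraries, against 212 and 240 TPM in the control libraries. Mutant replicate 2 lay just above control replicate 1, so the groups overlapped (log2 fold change -0.19, 95% interval -0.53 to 0.15, adjusted p = 0.277). Under median-ratio scaling it was -0.02 (adjusted p = 0.887). Fib over nop5 was 1.69 and 1.37 in the mutant libraries, against 1.05 and 0.989 in the control libraries (exact permutation p = 0.333, adjusted 0.416), and Nop56 over nop5 was 1.06 and 0.997 in the mutant libraries, against 0.900 and 0.848 in the control libraries, with the same p-values.

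Nop60B (FBgn0259937), on the plus strand of chromosome 2R from 24174877 to 24186343, encodes the fly dyskerin, the pseudouridine synthase of the box H/ACA particles. It had the highest level of the 10 genes, at 309 and 350 TPM in the mutant libraries, against 321 and 386 TPM in the control libraries. The groups overlapped, and the log2 fold change was -0.10 (SE 0.14, 95% interval -0.45 to 0.25, adjusted p = 0.587). It was 0.08 under median-ratio scaling, 0.0047 with the listed TPM scaled to a common sum and 0.03 without control replicate 2. The annotation places 7 snoRNA genes within Nop60B, and 1 each within Fib and nop5. All 9 were listed at 0 in the 4 libraries. Of those in Nop60B, 6 share 522 of its 3412 exonic bases on the same strand. How reads in those bases were assigned is not given, so a 0 does not show that these RNAs were absent.

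Nopp140 (FBgn0037137), on the plus strand of chromosome 3L from 21832774 to 21836685, encodes a phosphoprotein of the nucleolus and Cajal bodies that associates with snoRNPs. It was at 117 and 129 TPM in the mutant libraries, against 139 and 154 TPM in the control libraries. The groups did not overlap, and the log2 fold change of -0.25 did not pass (SE 0.12, 95% interval -0.55 to 0.04, adjusted p = 0.131). It was -0.08 under median-ratio scaling (adjusted p = 0.489). Its neighbour P5CDh1, which shares 21 exonic bases with it on the opposite strand, rose (log2 fold change 0.62, adjusted p = 0.0125).

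Nnp-1 (FBgn0022069), on the minus strand of chromosome 2L from 13363308 to 13366189, is related to Rrp1, which in yeast acts in processing of the large subunit rRNA. It was at 55.0 and 58.9 TPM in the mutant libraries, against 66.1 and 65.2 TPM in the control libraries. The mutant libraries were lower without overlap (log2 fold change -0.20, 95% interval -0.47 to 0.07, adjusted p = 0.170), but under median-ratio scaling the fold change was -0.03 (adjusted p = 0.798).

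Tif-IA (FBgn0032988), on the plus strand of chromosome 2L from 22249876 to 22258260, encodes the initiation factor through which growth signals reach RNA polymerase I. It had the tightest replicates, at 48.5 and 48.8 TPM in the mutant libraries, against 58.4 and 58.2 TPM in the control libraries. The gap was far larger than the spread within either group, yet limma, which borrows the spread of genes of like level, gave a log2 fold change of -0.26 that did not pass (SE 0.10, 95% interval -0.51 to 0.0027, adjusted p = 0.0927). Under median-ratio scaling the fold change was -0.08 (adjusted p = 0.489).

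**Figure D3:**
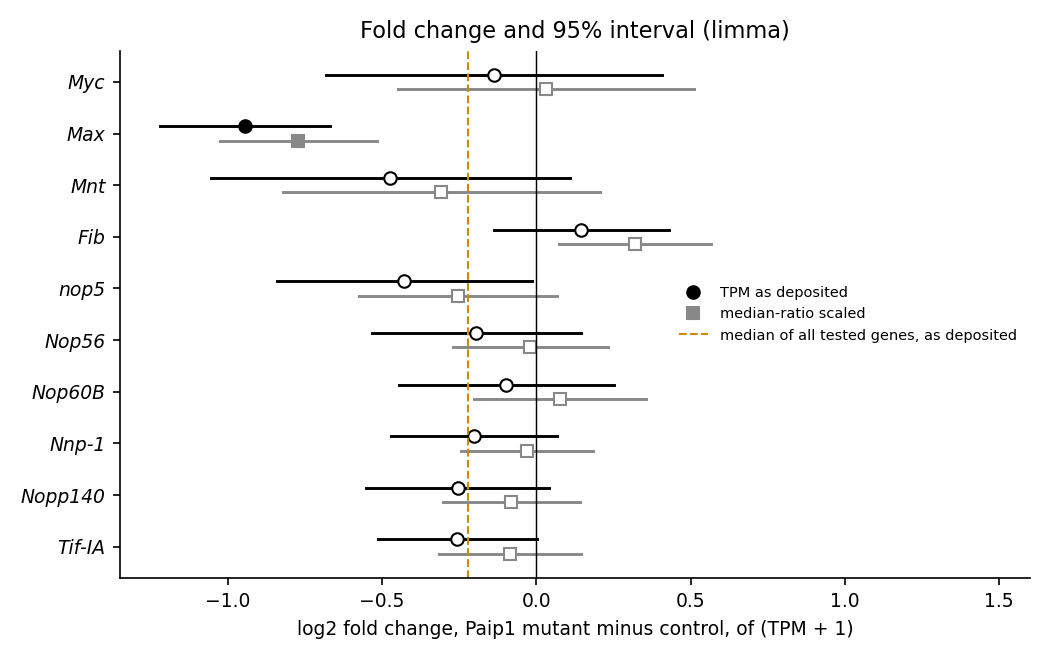
log2 fold change of (TPM + 1), mutant minus control, with 95% intervals from limma, for TPM as deposited (black circles) and after median-ratio scaling (grey squares); filled marks have an adjusted p under 0.05, and the dashed line is the median of all tested genes, -0.22. Max alone is filled on both scales, and for TPM as deposited the intervals of the 8 genes other than Max and Fib hold the dashed line.

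Over the set, 6 genes lay lower in both mutant libraries than in both control libraries, 1 lay higher and 3 overlapped. Among all tested genes 52.8% were lower in this sense and 25.1% higher, 77.9% in all. The intervals of 8 genes lay within 1 log2 unit of 0, and those of Max and Mnt did not. Scaling TPM by median ratios brought the median of all tested genes to -0.06 and that of the 10 genes to -0.06. With that scaling 7 of the 10 fold changes were negative, against 9 as deposited, and Max was again the only one to pass, beside 40.4% of all tested genes.

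The order of levels was nearly the same in both groups. In the mutant it ran, from high to low, Nop60B, Fib, Nop56, nop5, Nopp140, Nnp-1, Tif-IA, Max, Myc and Mnt, and of these neighbours the libraries of Nop56 and nop5 overlapped. In control it ran Nop60B, Fib, nop5, Nop56, Nopp140, Max, Nnp-1, Tif-IA, Myc and Mnt, and the libraries of Fib overlapped with those of nop5, and those of nop5 with those of Nop56. The snoRNP genes stood among the most abundant transcripts of the disc: 94.4% to 96.8% of tested genes had a lower mean than Nop56, nop5, Fib or Nop60B. Mnt stood above 39.9% and Myc above 61.4%.

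The libraries within a group also differed. Mutant replicate 2 had the higher value for 9 of the 10 genes, all but Max, as it had for 68.5% of all tested genes. Control replicate 2 had the higher value for 6 of the 10, as it had for 55.3% of all tested genes.

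**Figure D4:**
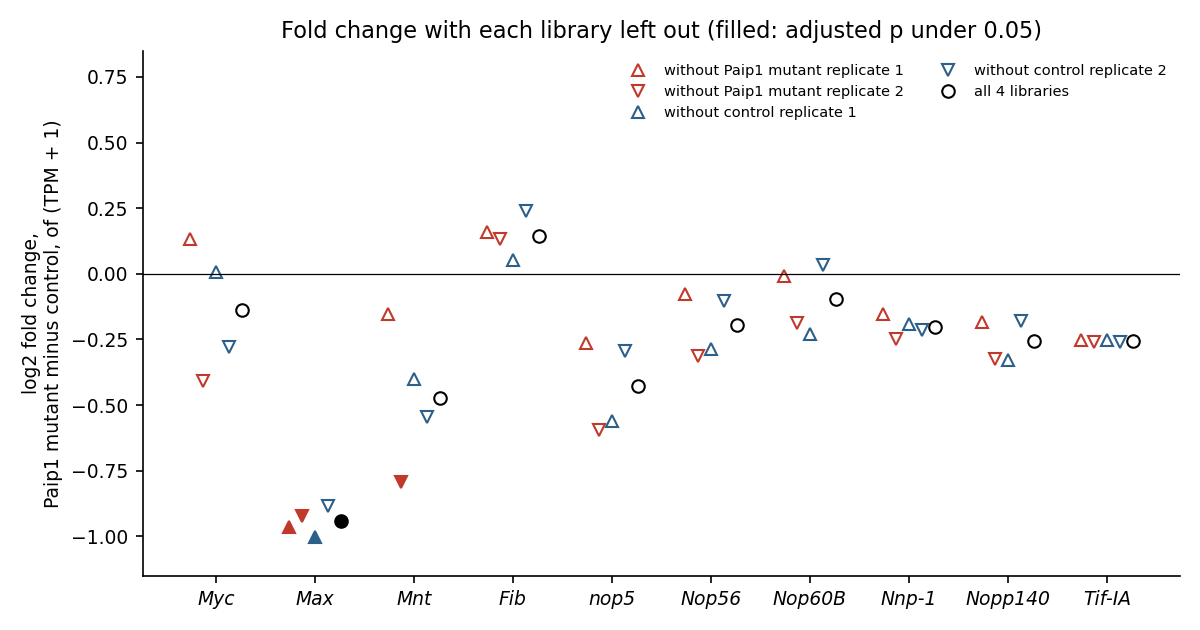
log2 fold change of (TPM + 1), mutant minus control, with all 4 libraries (black) and with each library left out (red: a mutant library, blue: a control library); filled marks have an adjusted p under 0.05. The marks of Tif-IA stay at -0.25 to -0.26, those of Myc range over both sides of 0, and the mark of Max without control replicate 2 is open at -0.88.

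In the authors' deposited table, where the scale of the fold change is not stated, 2 of the 10 genes had an adjusted p under 0.05, Max (log2 fold change -0.70, adjusted p = 7.05e-05) and Fib, beside 28.8% of the 13667 genes tested there. None of the 10 carries the mark of significance in that table, whose marked genes all have an absolute log2 fold change of at least 1.0. Its value for Myc was 0.13 (adjusted p = 0.626). For nop5 it was -0.26 (adjusted p = 0.142), and for Tif-IA -0.09 (adjusted p = 0.621).

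Wider lists of the Myc network and of ribosome assembly held 83 genes of the table, the 10 among them, and all were tested. Of the 17 genes of the Myc network and its regulators, 7 fell, 1 rose and 9 did not pass (median log2 fold change -0.46). The share that passed, 47.1%, was near the 44.8% of all tested genes. The gene that rose was Nipped-A, the fly TRRAP, a large scaffold protein through which Myc recruits histone acetyltransferases. It was at 1623 and 2209 TPM in the mutant libraries, against 49.7 and 46.5 TPM in the control libraries (log2 fold change 5.27, SE 0.17, adjusted p = 8.54e-05). The groups were separated by more than any other pair in these lists. The authors' deposited table gives it a log2 fold change of 4.44. Its exons contain 186 annotated bases of a transposable element. A TPM value per gene does not show which part of the gene the reads covered, so whether the whole transcript was higher is not known from these data.

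Besides Max, the genes of that list that fell included mei-P26, a TRIM-NHL protein known to repress Myc in stem cell lineages, at 8.21 and 9.78 TPM in the mutant libraries, against 18.5 and 17.6 TPM in the control libraries (log2 fold change -0.93, adjusted p = 0.00665). Kdm5, the histone demethylase Little imaginal discs that binds Myc, fell to 28.3 and 34.1 TPM in the mutant libraries, against 56.3 and 56.9 TPM in the control libraries (log2 fold change -0.84, adjusted p = 0.00764). The others were named after their values were seen. They were ago, the F-box protein that targets Myc for degradation, and scny, the deubiquitinase USP36, with the splicing regulators Psi and hfp. Psi and hfp act on Myc transcription. Log2 fold changes were -0.81 for ago (adjusted p = 0.0144), -0.64 for Psi (0.0331), -0.46 for hfp (0.0216) and -0.46 for scny (0.0216). Under median-ratio scaling scny was at -0.29 and did not pass (adjusted p = 0.0564), and hfp was at -0.29 (adjusted p = 0.0480). The median log2 fold change of the list was -0.28 without mutant replicate 1 and -0.49 without mutant replicate 2. It was -0.43 without control replicate 1 and -0.41 without control replicate 2. Over all tested genes the median was -0.16, -0.28, -0.25 and -0.20 in these fits, in the same order. Without control replicate 1 or 2 none of mei-P26, Kdm5, ago, Psi, hfp and scny passed, and each of those fits rests on a single control library.

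Across the 6 lists of ribosome assembly, 7 of 66 genes fell and 2 rose, 13.6% in all, against 44.8% of all tested genes (29.1% lower and 15.6% higher). The median log2 fold change was -0.13. Their median absolute log2 fold change was 0.20, against 0.44 for all tested genes. Under median-ratio scaling the 9 genes that passed were split as 3 lower and 6 higher, beside 40.4% of all tested genes that passed, and the median was 0.04. By list, that scaling gave 1 lower and 1 higher for RNA polymerase I, 0 and 1 for small subunit assembly, 0 and 3 for large subunit assembly, and 1 and 1 for the other nucleolar proteins. With no filter on low values 3 of the 66 passed, beside 23.6% of the 13667 genes tested in that fit. With each library left out, the median log2 fold change of the 66 ranged from -0.22 without mutant replicate 2 to -0.01 without mutant replicate 1. Over all tested genes it was -0.28 and -0.16 in those fits. Of the genes called in these lists and named below, some had an adjusted p above 0.05 in the authors' deposited table. These were Polr1F (0.394), bys (0.122), RIOK2 (0.186) and CG2972 (0.0621). TAF1B (0.00303), Nop10 (0.00385), Nlp (1.67e-04), eIF6 (2.64e-16) and Non1 (9.51e-05) were below 0.05 there.

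RNA polymerase I genes had 2 of 11 lower and none higher, or 18.2% called against 44.8% of all tested genes. These were TAF1B, a subunit of the promoter selectivity factor, at 11.96 and 17.3 TPM in the mutant libraries, against 26.3 and 28.8 TPM in the control libraries (log2 fold change -0.89, adjusted p = 0.0179), and the subunit gene Polr1F (log2 fold change -0.41, adjusted p = 0.0410). The largest subunit gene Polr1A was at 46.5 and 42.1 TPM in the mutant libraries, against 42.6 and 37.3 TPM in the control libraries, and did not pass (adjusted p = 0.370, named after its value was seen). Both calls were lost without either control library (adjusted p = 0.0907 and 0.118 for TAF1B, 0.171 and 0.251 for Polr1F), without mutant replicate 1 (0.0554 and 0.119) and with no filter on low values (0.0545 and 0.0744). Polr1F also missed the threshold without mutant replicate 2 (0.0610), under median-ratio scaling (0.108) and with a common sum (0.0815).

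None of the 4 box C/D genes passed in limma after adjustment, against 44.8% of all tested genes. An unadjusted p under 0.05 was found for 2 of them, beside 55.2% of all tested genes. The fourth core protein, hoip, was at 334 and 365 TPM in the mutant libraries, against 418 and 553 TPM in the control libraries (log2 fold change -0.46, adjusted p = 0.0675). Among 6 box H/ACA genes Nop10, a core protein that binds dyskerin, fell to 141 and 233 TPM in the mutant libraries, against 371 and 490 TPM in the control libraries (log2 fold change -1.23, adjusted p = 0.0196). The other 5, Nop60B included, did not pass, so 16.7% of this list was called against 44.8% of all tested genes. Nop10 is short, with 316 exonic bases, 100 of which overlap CG12935. It did not pass when either control library was dropped (0.0676 and 0.118), when mutant replicate 1 was dropped (0.0830) or with no filter on low values (0.0614), all as adjusted p.

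Of 11 other nucleolar protein genes 1 fell and none rose, or 9.09% called against 44.8% of all tested genes. It was Nlp, a histone chaperone of the nucleoplasmin family. Nlp was at 625 and 719 TPM in the mutant libraries, against 987 and 1065 TPM in the control libraries. Its log2 fold change was -0.61 (adjusted p = 0.0134). Nopp140 and Nnp-1 are in this list. Nlp did not pass when control replicate 1 (adjusted p = 0.0820), control replicate 2 (0.113) or mutant replicate 1 (0.0570) was dropped.

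The 15 genes of small subunit assembly had 3 lower and none higher, or 20% called against 44.8% of all tested genes. These were bys, or bystin, at 47.6 and 53.6 TPM in the mutant libraries, against 66.1 and 69.9 TPM in the control libraries (log2 fold change -0.42, adjusted p = 0.0361), the kinase gene RIOK2 (-0.40, adjusted p = 0.0400) and CG2972, which RefSeq also lists as NOB1 (-0.49, adjusted p = 0.0354). None of the 3 passed under median-ratio scaling (adjusted p = 0.0687 for bys, 0.0911 for RIOK2 and 0.0525 for CG2972), with a common sum (0.0679, 0.0777 and 0.0599) or without control replicate 1, control replicate 2 or mutant replicate 1 (0.0911 to 0.232). With no filter on low values RIOK2 (0.0584) and CG2972 (0.0634) also missed it. RIOK2 shares 849 of its 1751 exonic bases with asRNA:CR45214.

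The 19 genes of large subunit assembly had none lower and 2 higher, or 10.5% called against 44.8% of all tested genes. eIF6, which keeps the large subunit from joining the small one too early, rose to 301 and 336 TPM in the mutant libraries, against 136 and 171 TPM in the control libraries (log2 fold change 1.05, SE 0.15, adjusted p = 0.00600). Non1, a nucleolar GTP-binding protein, rose to 676 and 535 TPM in the mutant libraries, against 437 and 371 TPM in the control libraries (log2 fold change 0.58, adjusted p = 0.0353). The call of eIF6 was narrowly lost without control replicate 1 (adjusted p = 0.0520), and that of Non1 without control replicate 1 or 2 (0.101 and 0.206), without mutant replicate 1 (0.133) and with no filter on low values (0.0799).

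**Figure D5:**
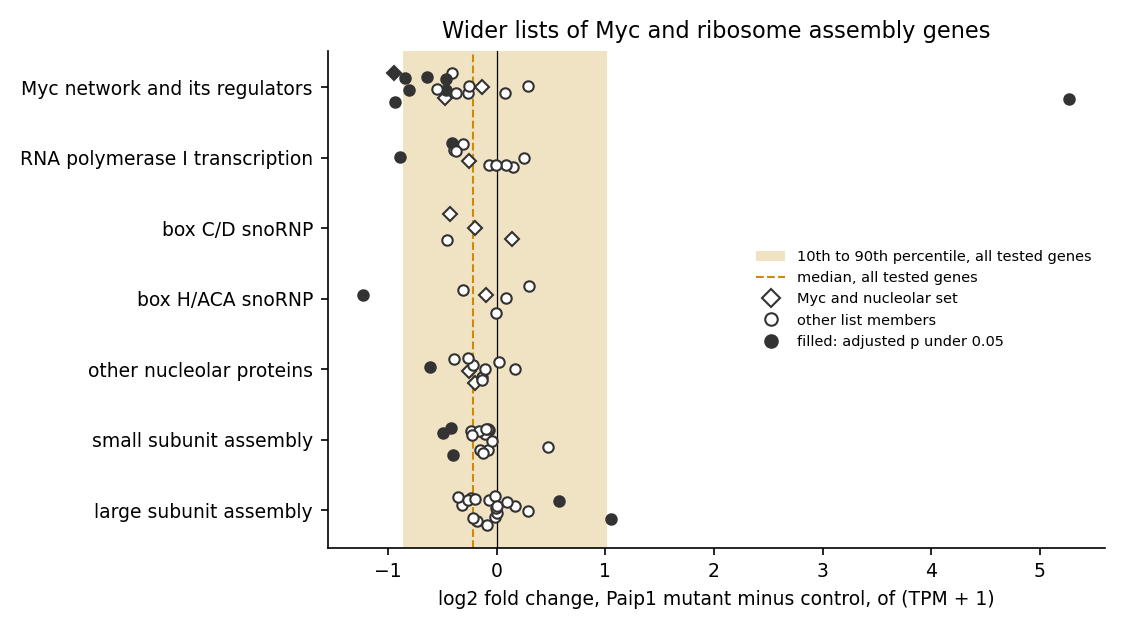
log2 fold change of (TPM + 1), mutant minus control, for the 83 genes of the wider lists, 1 mark per gene; diamonds are the 10 genes of this account, filled marks have an adjusted p under 0.05, the band runs from the 10th to the 90th percentile of all tested genes (-0.86 to 1.02) and the dashed line is their median. Most assembly genes lie inside the band near 0, and Nipped-A stands alone at 5.27.

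The genes whose pattern was nearest to that of Myc, by Euclidean distance of centred log2(TPM + 1) over the 4 libraries, were m (distance 0.0419), RapGAP1 (0.0590) and sturkopf (0.0686). RapGAP1 was at 13.4 and 19.8 TPM in the mutant libraries, against 20.7 and 17.1 TPM in the control libraries, and m was at 0.690 and 1.42 TPM in the mutant libraries, against 1.44 and 0.950 TPM in the control libraries. Like Myc, both had their lowest value in mutant replicate 1 and their highest in control replicate 1. The values of m lay near 1 TPM, where the 1 added to TPM shrinks differences, so its distance to Myc depends on that setting.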

How the data were processed

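RNA extracted with Trizol was sequenced on an Illumina platform, per the labels' protocols. The authors deposited 1 table with a value per gene and library and no unit in its header. TPM was inferred as their unit, since the deposited values have decimals and each library adds up to 91.95% to 99.65% of the nominal TPM total. Per the file headers, the table also has group means and the authors' own comparison: the fold change as a ratio, the same in log2, and the p-value before and after adjustment. The submitters' processing notes name FastQC, TopHat, RSEM, DESeq and dm6 with neither version nor role.

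Gene IDs were matched to current symbols (17253 of 17559) and to Ensembl annotation in dm6 coordinates. Groups were compared with limma 3.58.1 (R 4.3.3), with a variance trend and two-sided, on log2(TPM + 1), without a block, over 8605 genes that reached 1 TPM in 2 or more libraries. The pseudocount shrinks fold changes of low genes. Residual degrees of freedom were 2 and prior degrees of freedom 3.27. The fit was tested on simulated data with normal noise, in which few genes were changed. No outcome is reported here, so that test is no measure of error in these data. A count model was foreseen had the table held counts, and it was not run. Alternatives were another pseudocount (0.1), no filter, a mean of at least 5 TPM, median-ratio scaling, a common sum, the replicate number as a block and each library left out over the same genes. Figures were made with matplotlib 3.10.9.

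The 10 genes and the lists were chosen with earlier results of these data known. Named were these 10, Paip1, up to 4 genes of each wider list past the threshold by smallest p (else the 2 with the highest mean), and the 3 genes most like Myc. Of 84 list entries 83 were matched. The precision rests on 2 libraries per group. Sequences were not used here.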

Additional observations from a re-analysis of the deposited data

How the results depend on the processing

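Of the 10 genes, Max passed in all alternatives but 1, without control replicate 2. With each library left out, 0 to 2 of the 10 passed, 0 to 2 of them lower, and of all genes 1013 to 3273 passed, 607 to 1089 higher and 406 to 2184 lower, against 3852, 1346 and 2506 with all libraries. Leaving out control replicate 1 or 2 gave 1013 and 1099, and mutant replicate 1 gave 1838. With no filter 3231 passed (1531 higher), and under median-ratio scaling 3475 (1732 higher, 1743 lower). With a common sum 3405 passed (1507 higher, 1898 lower), so the share of higher calls depends on the scaling. The labels do not say whether same-numbered libraries belong together. Over tested genes the differences between replicates 1 and 2 of the groups correlated at r = 0.065, which cannot show whether a batch was shared. With a replicate block 4246 genes passed, and among them 2 of the 10, Max and nop5, both lower (adjusted p = 0.0199 for nop5). Of the 4 box C/D genes 2 then passed, nop5 and hoip (0.0252), and 17 of the 66 assembly genes against 9. The log2 fold change of Myc turned positive under median-ratio scaling (0.032) and ranged from -0.41 to 0.13 with each library left out, positive without control replicate 1 (0.0052) and mutant replicate 1 (0.13). That of Nop60B turned positive under median-ratio scaling (0.077) and with a common sum (0.0047), and ranged from -0.23 to 0.035 with each library left out, positive without control replicate 2. The causes were not tested. TPM keeps no depth, so counting error is unknown. The count model that was foreseen was not run because the table holds no counts.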
